A study of Homo sapiens with 2 samples.

Results

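The miR-192, miR-194 and miR-215 clusters are a pair of paralogous miRNA gene clusters, one on chromosome 11 and one on chromosome 1. Members were taken by name, as the arms of these hairpins given in a list of 6 names. Of the 6, 5 matched a row among the 2218 mature miRNAs of the deposited table: hsa-miR-192-5p, hsa-miR-192-3p, hsa-miR-194-5p, hsa-miR-194-3p and hsa-miR-215-5p, written below without the species prefix. The name without an arm, hsa-miR-215, matched no row. The minor arm miR-215-3p was not on the list and is given beside the members for completeness.

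The data were 2 small RNA libraries from K562, an established human erythroleukaemia line grown in suspension. The QKI5 library came from K562 cells transduced with a lentivirus that overexpresses QKI5, the Quaking isoform that resides in the nucleus and binds RNA there, and the GFP library from K562 cells transduced with a GFP lentivirus. Both groups thus carried a lentivirus, both had the same line as their source, and there was 1 library in each. The study asked which miRNAs QKI5 regulates. With 1 library per group no difference below has a replicate check, no p-value is given, and intervals are 95% intervals for counting error only.

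A miRNA hairpin is cut by Drosha and Dicer into a duplex with a 5p and a 3p strand. One strand is usually loaded into Argonaute and the other, the passenger strand, is mostly degraded. Bases 2 to 8 of the loaded strand, the seed, choose the target mRNAs. miR-192, miR-194 and miR-215 are best known from liver, intestine and kidney, where hepatocyte nuclear factors drive their transcription, and from the p53 pathway, which induces them in epithelial cells. miR-192-5p and miR-215-5p share a seed and are treated as one targeting family, while miR-194-5p has a different seed.

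The mature sequences are shown because the seed and the few bases that separate the paralogs decide which reads can be told apart. Capitals mark the seed (RefSeq, GRCh38.p14 table, 5′ to 3′).
miR-192-5p: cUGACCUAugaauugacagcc
miR-215-5p: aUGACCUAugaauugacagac
miR-194-5p: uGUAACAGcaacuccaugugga
miR-192-3p: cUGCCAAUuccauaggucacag
miR-194-3p: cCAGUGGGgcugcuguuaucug
miR-215-3p: uCUGUCAUuucuuuaggccaaua

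miR-192-5p and miR-215-5p were identical at 19 of 21 bases. Counted from the 5′ end of miR-192-5p, the differences were C1A and C20A, both outside the seed. Among the mature miRNAs of the RefSeq table no other shared their seed, and no other mature miRNA shared the seed of miR-192-3p, miR-194-5p or miR-194-3p.

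The 4 hairpins are shown with their annotated mature arms in capitals, to place each arm in its precursor. The positions below are those of GRCh38.p14, all on the minus strand, whereas the authors mapped to hg19.
MIR192 (chr11:64891137-64891246): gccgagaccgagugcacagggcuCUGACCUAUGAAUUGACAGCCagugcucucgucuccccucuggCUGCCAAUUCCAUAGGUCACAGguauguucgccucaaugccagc
MIR194-2 (chr11:64891355-64891439): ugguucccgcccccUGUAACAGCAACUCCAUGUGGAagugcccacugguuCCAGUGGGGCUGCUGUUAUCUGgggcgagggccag
MIR215 (chr1:220117853-220117962): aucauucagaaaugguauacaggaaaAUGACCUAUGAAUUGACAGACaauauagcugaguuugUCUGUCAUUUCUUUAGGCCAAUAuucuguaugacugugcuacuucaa
MIR194-1 (chr1:220118157-220118241): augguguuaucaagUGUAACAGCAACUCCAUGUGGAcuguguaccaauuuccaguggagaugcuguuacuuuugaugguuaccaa

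MIR192 and MIR194-2 lie 108 bases apart in an exon of the long non-coding RNA MIR194-2HG, on the same strand (GENCODE release 29). MIR215 and MIR194-1 lie 194 bases apart, within the gene IARS2 but outside its annotated exons and on the strand opposite to it. Both miR-194 hairpins hold the same miR-194-5p, so its reads cannot be assigned to 1 locus. The annotated miR-194-3p belongs to MIR194-2 alone, which makes it, with both arms of miR-192, a readout of the chromosome 11 cluster. Global alignment of the hairpins gave 55.2% identity for MIR192 and MIR215 and 65.9% for MIR194-2 and MIR194-1. For comparison, the neighbours MIR192 and MIR194-2 gave 48.2%.

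QKI proteins bind ACUAA followed by a pyrimidine, with a half-site of UAA followed by a pyrimidine. On the transcribed strand, ACUAA was found in 0 of the 4 hairpins and in 3.27% of 1560 RefSeq hairpins, and its reverse complement UUAGU also in 0 of the 4 and in 3.72% of all hairpins. UAAC occurred once in MIR194-2 and once in MIR194-1, within the seed of miR-194-5p in both, against 12.6% of all hairpins with at least 1 match. Its reverse complement GUUA occurred once in MIR194-2 and 3 times in MIR194-1, and in 15.8% of all hairpins. UAAU was in 0 of the 4 and in 15.3% of all hairpins, and its reverse complement AUUA in 0 of the 4 and in 15.0%. Either half-site may overlap a match of ACUAA. These are matches of letters in the hairpin and say nothing of binding.

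The total behind the QKI5 values was 6553945 reads, 59.5% of them on listed miRNAs, and that behind the GFP values was 23262340 reads, 66.3% of them on listed miRNAs. The GFP library was 3.55 times as deep. Erythroid markers were present in both libraries, with all 5 read and a summed level of 3320 RPM (reads per 1000000 reads of the library) with QKI5 and 4073 RPM with GFP. The 4 leukocyte markers summed to 20864 RPM with QKI5 and 19085 RPM with GFP. Of these, miR-150-5p was barely read, with 1 read with QKI5 and 2 with GFP, and miR-142-3p and miR-223-3p made up most of the sum. The hepatocyte marker miR-122-5p had 0 reads with QKI5 and 1 read with GFP. For the 0 reads, an allowance of 3 reads is 0.458 RPM, and the exact Poisson interval reaches 0.563 RPM. All 4 markers of gut and pancreas epithelium were read, at 20.1 RPM in all with QKI5 and 11.5 RPM with GFP. The sum of that list was higher with QKI5, as miR-192-5p was. The intervals of the ratio lay above 1 for miR-200b-3p (2.24 to 8.34) and miR-429 (1.38 to 3.89). They included 1 for miR-375 (0.995 to 1.89) and miR-200a-3p (0.877 to 2.31). The part of that list in the results below was not tested.

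miR-192-5p was the leading arm of the group and the one whose counting interval lay wholly above 2-fold. It had 1605 reads in the QKI5 library and 1888 reads in the GFP library, which is 245 RPM with QKI5 and 81.2 RPM with GFP. The level was 3.02-fold higher with QKI5 (2.82 to 3.23). By level it ranked 103 of 2218 with QKI5 and 162 with GFP.

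miR-194-5p, the main product of the neighbouring hairpins, came second in both libraries. It had 198 reads (30.2 RPM) with QKI5 and 486 reads (20.9 RPM) with GFP, a ratio of 1.45 (1.22 to 1.71). The interval lay above 1 and below 2, so the level was higher with QKI5 by less than 2-fold within counting error.

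miR-215-5p, the seed partner of miR-192-5p from chromosome 1, was barely present. It had 13 reads (1.98 RPM) with QKI5 and 11 reads (0.473 RPM) with GFP, a ratio of 4.19 (1.73 to 10.3). The interval lay above 1, but on 24 reads in all it ran from under 2-fold to over 10-fold. Its reads were 0.803% of those of both seed sharers with QKI5 (0.428% to 1.37%) and 0.579% with GFP (0.290% to 1.03%), and these intervals overlapped. The sources used here do not say how reads that match both sequences with a mismatch were assigned, so reads of miR-215-5p and misread copies of the far more abundant miR-192-5p cannot be told apart.

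The passenger strands showed no difference beyond counting error. miR-192-3p had 78 reads (11.9 RPM) with QKI5 and 274 reads (11.8 RPM) with GFP, a ratio of 1.01 (0.775 to 1.30). miR-194-3p had 9 reads (1.37 RPM) with QKI5 and 50 reads (2.15 RPM) with GFP, a ratio of 0.639 (0.276 to 1.31). Both intervals included 1, so no difference of these arms was detectable at this depth. miR-215-3p had 1 read (0.153 RPM) with QKI5 and 7 reads (0.301 RPM) with GFP, and its ratio of 0.507 was not determined by so few reads (0.0113 to 3.95).

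**Figure D1:**
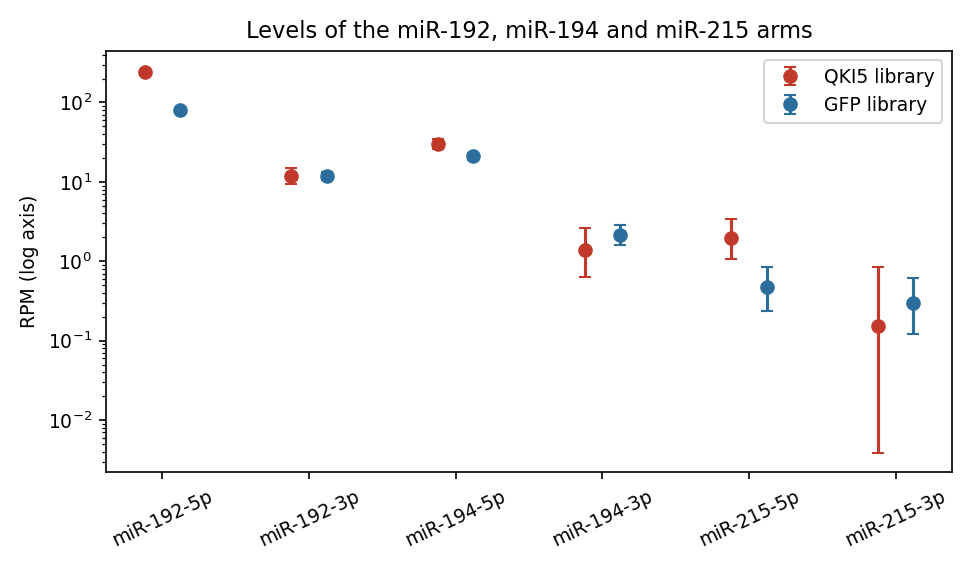
Level of each arm in RPM on a log axis, with the QKI5 library (red) to the left of the GFP library (blue) and bars for the exact Poisson 95% counting interval, 1 library each. The QKI5 point of miR-192-5p is at 245 RPM and its GFP point at 81.2 RPM, while miR-192-3p is near 12 RPM in both.

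The order of the arms by level was nearly the same in both libraries. With QKI5 it ran miR-192-5p, miR-194-5p, miR-192-3p, miR-215-5p, miR-194-3p and miR-215-3p. The counting intervals of miR-215-5p (1.06 to 3.39 RPM) and miR-194-3p (0.628 to 2.61 RPM) overlapped there, as did those of miR-194-3p and miR-215-3p (0.00386 to 0.850 RPM), so these neighbours could not be ordered. With GFP the first 3 places were the same, and miR-194-3p (1.60 to 2.83 RPM) stood above miR-215-5p (0.236 to 0.846 RPM) without overlap. miR-215-5p and miR-215-3p (0.121 to 0.620 RPM) overlapped in the GFP library.

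**Figure D2:**
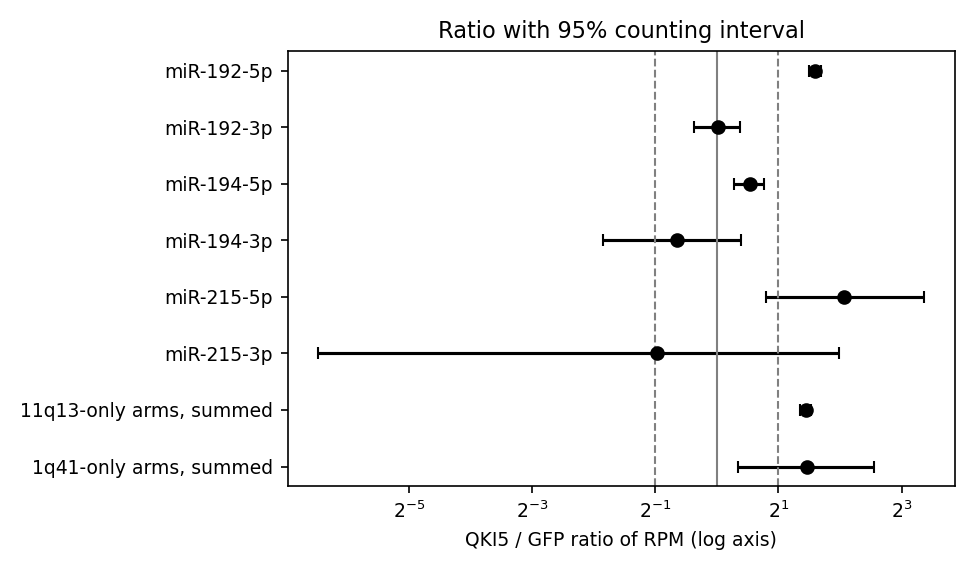
Ratio of RPM, QKI5 over GFP, on a log axis for each arm and for the summed arms that belong to 1 locus, with exact 95% counting intervals. The solid line marks a ratio of 1 and the dashed lines a 2-fold difference either way. The interval of miR-192-5p lies wholly above 2-fold, and those of miR-192-3p, miR-194-3p and miR-215-3p include 1.

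Set against all miRNAs, the group was mixed. A miRNA was counted as 2-fold higher or lower by log2(RPM + 0.153 RPM), a scale that understates the change of low miRNAs, among the 820 miRNAs with at least 10 reads over both libraries. All 5 members passed this minimum, miR-194-3p through its GFP reads. Of the 5, 2 were at least 2-fold higher with QKI5 (miR-192-5p and miR-215-5p), where 21.8% of the 820 were, and 0 were at least 2-fold lower, where 10.0% were. Over the 820, 179 were higher and 82 lower, a split that turned to 108 higher and 144 lower under quantile normalization. Among the 200 most abundant miRNAs stood miR-192-5p alone, where 15.0% were 2-fold higher and 7.00% lower, and among the 400 most abundant miR-192-5p, miR-194-5p and miR-192-3p, where 20.8% were higher and 7.25% lower. The members' log2 ratios were 1.59 for miR-192-5p, 0.01 for miR-192-3p, 0.53 for miR-194-5p, -0.59 for miR-194-3p and 1.77 for miR-215-5p. Their median was 0.53, beside 0.26 for the 820. Of the 820, 91.1% had a lower log2 ratio than miR-192-5p, 61.8% a lower one than miR-194-5p and 41.3% a lower one than miR-192-3p. The 2-fold call of miR-215-5p ended with a pseudocount 10 times as large, where its log2 ratio was 0.81. The sign of the log2 ratio of miR-192-3p turned to -0.09 when the columns were rescaled without the 10 most abundant miRNAs, -0.05 under a trimmed mean, -0.37 under quantile normalization and -0.04 with a linear GC trend removed.

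**Figure D3:**
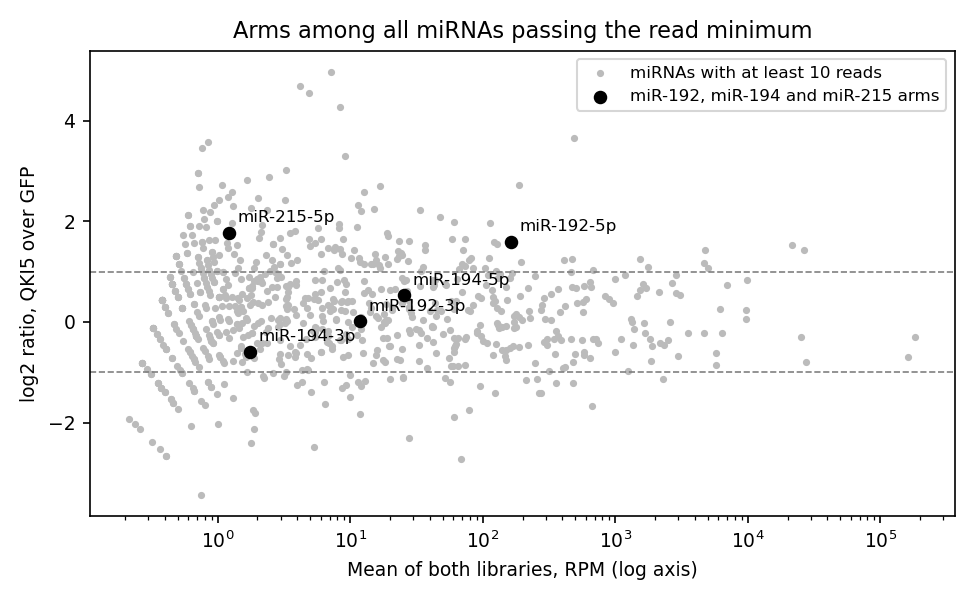
Log2 ratio of QKI5 over GFP against the mean level of both libraries in RPM (log axis) for the 820 miRNAs with at least 10 reads (grey), with the 5 members in black and dashed lines at a 2-fold difference. miR-192-5p and miR-215-5p lie above the upper line at 1.59 and 1.77, and the other members lie between the lines.

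The arms of miR-192 diverged. The 5p arm took 95.4% of the reads of both miR-192 arms with QKI5 (94.2% to 96.3%, 1683 reads) and 87.3% with GFP (85.9% to 88.7%, 2162 reads). Put as a ratio, there were 20.6 reads of miR-192-5p per read of miR-192-3p with QKI5 and 6.89 with GFP, which is 2.99 times as many with QKI5 (2.29 to 3.93). This ratio is formed within each library and does not depend on how the columns are scaled.

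miR-194 lay in the same direction, on fewer reads. The 5p arm took 95.7% with QKI5 (91.9% to 98.0%, 207 reads) and 90.7% with GFP (87.9% to 93.0%, 536 reads), or 22.0 reads of the 5p arm per read of the 3p arm with QKI5 and 9.72 with GFP. The ratio was 2.26 times as large with QKI5 (1.07 to 5.33). Its 5p reads may come from MIR194-1 as well, whose 3p arm is not annotated. For miR-215 the 5p share was 92.9% with QKI5, on 14 reads, and 61.1% with GFP, on 18 reads. Those intervals overlapped (66.1% to 99.8% with QKI5, 35.7% to 82.7% with GFP).

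**Figure D4:**
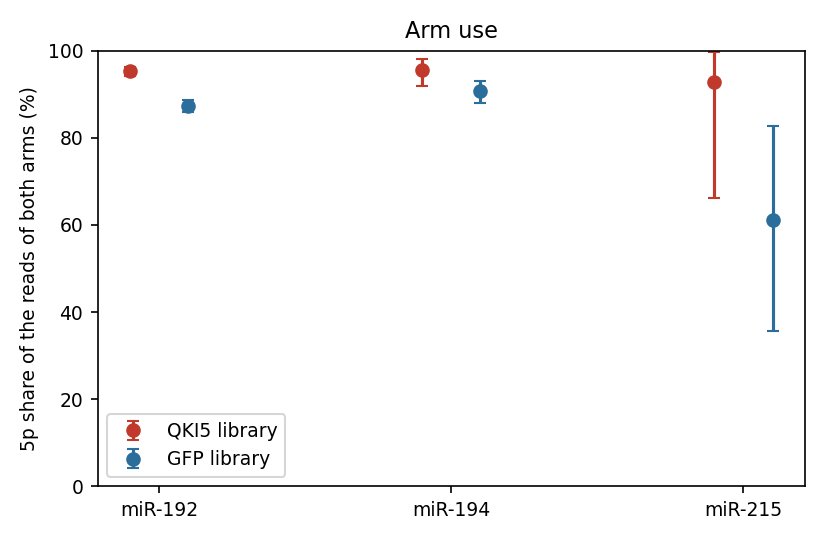
Share of the 5p arm in the reads of both arms, in percent, for each miRNA, with the QKI5 library (red) to the left of the GFP library (blue) and exact binomial 95% intervals. The miR-192 share is 95.4% with QKI5 and 87.3% with GFP, without overlap, and the miR-215 shares rest on 14 reads with QKI5 and 18 with GFP.

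Gaps of at least 1 between arms were not rare, and gaps larger than that of miR-192 occurred in both directions. The log2 ratio of the 5p arm exceeded that of the 3p arm by 1.58 for miR-192 and by 1.12 for miR-194. Of 225 hairpins with at least 10 reads on each arm, 24.4% had a difference of at least 1 in this direction and 16.4% one of at least 1 in the other, around a median of 0.19. The difference was larger than that of miR-192 in 22 hairpins and larger than that of miR-194 in 42. Among the 145 hairpins with at least 50 reads on each arm, it was larger than that of miR-192 in 9 and than that of miR-194 in 21. These counts hold only hairpins with the 5p arm above the 3p arm. Larger gaps than that of miR-192 also lay the other way, as for miR-361 (-3.20), miR-652 (-2.61) and miR-130b (-1.66). In miR-130b the 3p arm was the more abundant, so there the main arm was again the one with the higher ratio. GC content moved with the log2 ratio across miRNAs, by 0.027 per percentage point over the 716 of 820 miRNAs with a sequence. The 3p arms were the richer in GC, at 50% for miR-192-3p and 59.1% for miR-194-3p, beside 47.6% for miR-192-5p and 45.5% for miR-194-5p. With the linear GC trend removed the arm differences were 1.64 for miR-192 and 1.49 for miR-194.

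**Figure D5:**
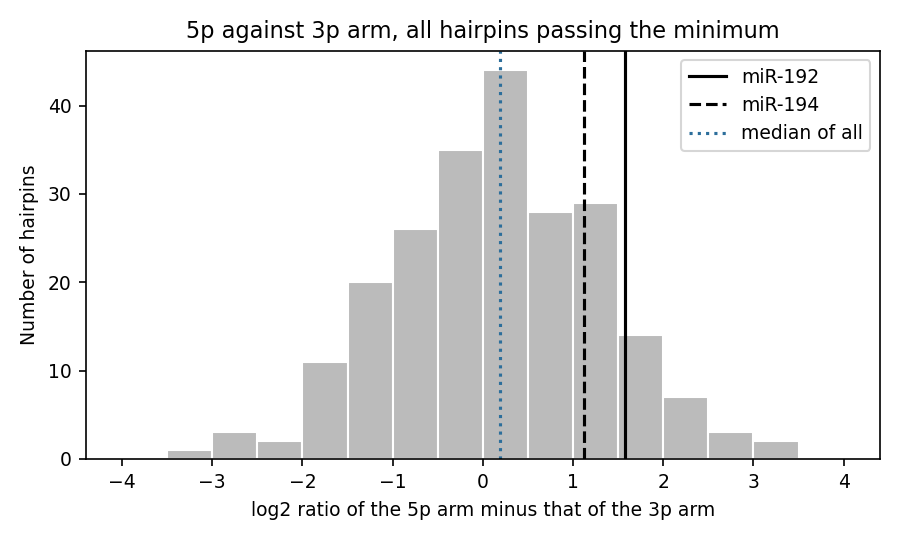
Number of hairpins by the log2 ratio (QKI5 over GFP) of the 5p arm minus that of the 3p arm, for the 225 hairpins with at least 10 reads on each arm. miR-192 (solid line, 1.58) and miR-194 (dashed line, 1.12) lie above the median of 0.19 (dotted line), with 22 hairpins to the right of miR-192.

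The main arms of miR-192 and miR-194 also differed from each other, although miR-194-5p reads may come from either cluster. There were 8.11 reads of miR-192-5p per read of miR-194-5p with QKI5 (6.99 to 9.44) and 3.88 with GFP (3.51 to 4.30), 2.09 times as many with QKI5 (1.74 to 2.51). In log2 ratio these arms were 1.06 apart. Neighbouring hairpins within 1000 bases on the same strand were compared by the most abundant arm that RefSeq lists for each under the same name. Among 57 such pairs, with at least 50 reads on that arm of each, the median gap was 0.69 and 35.1% of pairs were at least 1 apart. The gap was larger in 18 of the 57 pairs. Among the 18 was MIR425 with MIR191, at 1.23, for which miR-425-3p was used although miR-425-5p had more reads. With miR-425-5p, at a log2 ratio of -0.47 beside 0.57 for miR-191-5p, that pair would not be among the 18. The passenger strands gave 8.67 reads of miR-192-3p per read of miR-194-3p with QKI5 (4.34 to 19.7) and 5.48 with GFP (4.04 to 7.56), which overlapped. The ratio was 1.58 times as large with QKI5 (0.727 to 3.82), so these 3p arms showed no detectable difference between the chromosome 11 hairpins. That interval also held the 2.09 of the main arms, so the 3p reads cannot tell whether the hairpins moved alike. miR-192-5p, which belongs to chromosome 11 alone as well, was not part of this ratio.

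No difference in the balance of the loci was detectable, with miR-215-5p counted as named although misread copies of miR-192-5p cannot be told apart from it. Reads that belong to chromosome 11 alone (both arms of miR-192, and miR-194-3p) numbered 1692 with QKI5 and 2212 with GFP, a ratio of RPM of 2.71 (2.55 to 2.89). Reads listed under chromosome 1 alone (both arms of miR-215) numbered 14 with QKI5 and 18 with GFP, a ratio of 2.76 (1.27 to 5.87). By name, chromosome 1 thus held 0.821% of the locus-specific reads with QKI5 (0.449% to 1.37%) and 0.807% with GFP (0.479% to 1.27%). The 5 members summed to 290 RPM in the QKI5 library, against 116 RPM in the GFP library, which is 2.49-fold higher (2.35 to 2.64), of which miR-192-5p made up most.

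Other miRNAs known from liver and gut were mixed as well. Of 23 listed arms of this list, 15 had at least 10 reads, of which 5 were at least 2-fold higher with QKI5, where 21.8% of the 820 were, and 0 at least 2-fold lower, where 10.0% were. The median log2 ratio was 0.46 beside 0.26 for the 820. The 5 were miR-147b, both arms of miR-200b, miR-200c-5p and miR-429. Of these, miR-200b-5p rested on 10 reads, 7 with QKI5 and 3 with GFP (1.89 to 49.6). miR-200c-5p rested on 12 reads with an interval that included 1 (0.634 to 9.28). miR-147b, which has been described in gut epithelium and macrophages, measured 11.4 RPM in the QKI5 library, against 3.95 RPM in the GFP library, which is 2.89-fold higher (2.10 to 3.97). miR-200b-3p, of the family that keeps epithelial identity by repressing ZEB1 and ZEB2, measured 3.51 RPM in the QKI5 library, against 0.817 RPM in the GFP library, which is 4.30-fold higher (2.24 to 8.34). That arm rested on 42 reads. In the same family, miR-141-3p was lower with QKI5, at a ratio of 0.727 (0.616 to 0.853, 1071 reads). miR-200c-3p stood at a ratio of 1.65 (1.43 to 1.91, 859 reads). The most abundant of the list, miR-21-5p, which is widely expressed, measured 8796 RPM in the QKI5 library, against 5257 RPM in the GFP library, at a ratio of 1.67 (1.66 to 1.69). miR-148a-3p, abundant in liver, stood at a ratio of 0.609 (0.586 to 0.632).

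Among miRNAs that published work has tied to p53, 14 of 18 listed arms had at least 10 reads, of which 5 were at least 2-fold higher with QKI5, against 21.8% of the 820, and 0 at least 2-fold lower, against 10.0%. Their median log2 ratio was 0.70 beside 0.26 for the 820. The 5 were miR-1246, miR-143-3p, both arms of miR-34a and miR-34b-5p. Of these, miR-143-3p rested on 18 reads, 11 with QKI5 and 7 with GFP (1.97 to 17.0). The intervals of miR-34a-3p (0.817 to 15.4) and miR-34b-5p (0.991 to 6.88) included 1. miR-1246, whose entry overlaps U2 small nuclear RNA sequence, measured 16.2 RPM in the QKI5 library, against 0.688 RPM in the GFP library, which is 23.5-fold higher (13.8 to 42.6). miR-34a-5p, a direct p53 target, measured 29 RPM in the QKI5 library, against 4.34 RPM in the GFP library. miR-16-5p, the most abundant of the list, measured 12705 RPM in the QKI5 library, against 7083 RPM in the GFP library. miR-107 stood at a ratio of 1.62 (1.57 to 1.68) and miR-145-5p at 0.994 (0.977 to 1.01). Lower with QKI5 were miR-15a-5p, at a ratio of 0.747 (0.732 to 0.762, 70127 reads), and miR-15a-3p, at 0.579 (0.487 to 0.686). Of the 14 arms, 10 had a log2 ratio above 0 and 4 below. K562 is known to lack functional p53, and any part of p53 in these values was not tested.

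By the size of the difference in log2 ratio over these 2 libraries, the miRNAs most like miR-192-5p among the 200 most abundant were miR-941 (0.008 apart), miR-769-5p (0.044) and miR-4286 (0.050). miR-941 measured 184 RPM in the QKI5 library, against 61.2 RPM in the GFP library, and miR-769-5p measured 192 RPM with QKI5, against 65.5 RPM with GFP, so both also had about the level of miR-192-5p. The nearest to miR-194-5p were miR-92a-1-5p (0.005), miR-484 (0.008) and miR-337-3p (0.008), at ratios of 1.44, 1.44 and 1.43.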

How the data were processed

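Per the labels' protocols, small RNA was isolated with a miRNA kit, made into libraries with an Ion Torrent kit and sequenced on an Ion Proton. Bowtie 0.12.3 and hg19 are named in the submitters' processing notes. The sources used here do not state the miRNA annotation, mismatches, strand use or multi-mapping. The values the authors deposited are RPM, although the table is named RPKM: within each column 100% of values above 0 were whole multiples of 1 step (0.153 RPM for QKI5, 0.0430 RPM for GFP) within 0.1 of a read, the same for every miRNA. Reads and library totals were recovered from that step.

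Ratios are QKI5 over GFP with exact conditional binomial (Clopper-Pearson) 95% intervals, shares have exact binomial intervals and levels exact Poisson intervals. They cover counting error only, since no molecular identifiers show which reads came from separate molecules. A count of 0 allows 3 reads. Differences in log2 use a pseudocount of 0.153 RPM. Alternatives varied the pseudocount, scaling, read minimum, fold threshold, depth and GC content, and included a binomial test of reads. With 1 library per group, no model with an estimated spread was possible. The comparisons with all hairpins and with neighbouring hairpins, and their read minimums, were chosen after seeing the data. The members and lists were chosen with earlier results of these data known. The text names every member, miRNAs sharing a seed, the most abundant miRNA of each list and those 2-fold different among the 400 most abundant, and the 3 nearest in ratio. The other list members named, with values for miR-200b-3p, miR-141-3p, miR-200c-3p, miR-148a-3p, miR-107, miR-145-5p, miR-15a-5p and miR-15a-3p, were chosen after their values were seen. So were the hairpins named for a gap between arms larger than that of miR-192.

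Sequences came from RefSeq (GRCh38.p14), which matched 1946 of 2218 names, and host genes from GENCODE release 29. Python 3.11.15, numpy 2.4.6, scipy 1.17.1, pandas 2.3.3, Biopython 1.88 and matplotlib 3.10.9 were used, and the ratio and interval code was tested on simulated data.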

Additional observations from a re-analysis of the deposited data

How the results depend on the processing

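The log2 ratio of miR-192-5p stayed above 1 under all 8 alternatives of pseudocount, scaling, depth and GC content, between 1.45 and 1.75 (the thinned value being a median of draws). It left its counting interval with columns scaled to the summed miRNA reads (1.75), with columns scaled to that sum less the 10 most abundant miRNAs (1.48) and under quantile normalization (1.45). For the GFP reads drawn down to the depth of QKI5, the median of 100 draws is used, chosen after 2 single draws gave different values for miR-215-5p. Over the draws its log2 ratio ran from 0.64 to 3.81, with 0 to 8 GFP reads left, and that of miR-192-5p from 1.46 to 1.71. Quantile normalization also moved miR-192-3p to -0.37 and miR-194-5p to 0.16. The members at least 2-fold higher, 2 as reported, were 1 with a pseudocount 10 times as large (where 12.2% of the 820 were called), 1 among the 200 most abundant miRNAs (where 15.0% were called) and 1 among the 400 (20.8%). The members at least 2-fold lower, 0 as reported, were 1 under quantile normalization (where 17.6% of the 820 were called) and 1 at a threshold of 1.5-fold (20.2%), miR-194-3p in both. An exact binomial test of the reads with Benjamini-Hochberg adjustment, which compares these libraries and not the conditions, called 3 members higher (miR-192-5p, miR-194-5p and miR-215-5p) and 0 lower, where it called 14.5% of the 1995 detected miRNAs higher and 6.82% lower. Scaling to the summed miRNA reads shifted the median log2 ratio of the 200 most abundant by 0.16, and leaving out the 10 most abundant shifted it by -0.11. Of the calls among the 820 miRNAs, 68.6% were higher as reported and 42.9% under quantile normalization. With a minimum of 50 reads per arm, 31 hairpins rather than 55 had the 5p arm at least 1 above the 3p arm, of 145 and 225 compared. No paired analysis was possible because there was 1 library per group. Depth limits miR-194-3p, miR-215-5p and miR-215-3p, with 59, 24 and 8 reads over both libraries.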
